A study of Rattus norvegicus with 4 samples.

Results

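The genes described here encode the subunits of the mitochondrial respiratory chain (complexes I to IV) and of ATP synthase (complex V). They were chosen by a rule on rat gene symbols that uses no measured value, as Nduf, Sdh, Uqcr, Cyc1, Cox4 to Cox8 and Atp5 genes, and 80 of the 16581 genes with a named probe met that rule, through 107 probes and 117 spots on each array. The RNA came from NR8383 cells, a macrophage line established from the lung lavage of a normal rat, used after 20 passages. All cells had been exposed for 4 h to Printex90, a commercial carbon black, at a labelled dose of 0.9 cm2/cm2, and the labels add the abbreviation ALI. There were 4 biological replicates of this group, each on its own 1-colour array, and the untreated cells of the design were not analysed here. The values therefore show which subunit genes had a signal in exposed cells and how the replicates differed, and none of them is a change caused by the particles. Precision is limited by the number of arrays, 4.

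The respiratory chain takes electrons from NADH through complex I and from succinate through complex II. It passes them through ubiquinone, complex III and cytochrome c to complex IV, where oxygen is reduced, and complex V uses the proton gradient built on the way to make ATP. Most subunits are encoded in the nucleus and are needed in nearly every cell, whereas several complex IV subunits also exist as isoforms known from heart and skeletal muscle, from testis or from cells short of oxygen. The catalytic subunits encoded by mitochondrial DNA carry other symbols and are not among the 80 genes. In macrophages the chain is known as a point of metabolic control, since activation can shift these cells between respiration and glycolysis.

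The slide and the scan were the same for all 4 arrays, so neither could be tested as a batch. The 75th percentile of intensity, to which levels are scaled, was 99.4, 83.8, 101 and 127 on replicates 1 to 4, and 55.1%, 55.7%, 53.8% and 60.2% of named genes were well above background on them. Replicate 4 thus had the highest percentile, the largest share of genes above background and also the most spots flagged by the scanner software, 1551 against 750 to 1092 on the other arrays. Of the markers chosen for macrophages, 11 of 12 were well above background on all 4 arrays, among them Cd68 and Lyz2, and Adgre1 was so on 2 arrays.

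Nearly all subunit genes were measurable in these macrophages. Of the 80 genes, 74 (92.5%) were well above background on all 4 arrays, whereas 50.8% of all named genes were. By complex, the counts were 30 of 32 genes for complex I, 4 of 4 for complex II, 9 of 9 for complex III, 15 of 19 for complex IV and 16 of 16 for complex V. The shortfall in complex IV lay in its isoforms. All 12 of its common subunits were detected on every array, but 2 of the 6 tissue-restricted or inducible isoforms on the arrays (33.3%) were. Over all complexes 70 of 72 common subunits (97.2%) were detected, and so were both genes counted apart, the copy Ndufa10l1 and the pseudogene Cox6c-ps1. With 3 of 4 arrays required instead, 3 of the 6 restricted isoforms were detected, Cox6b2 among them, beside 54.0% of all named genes.

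**Figure D1:**
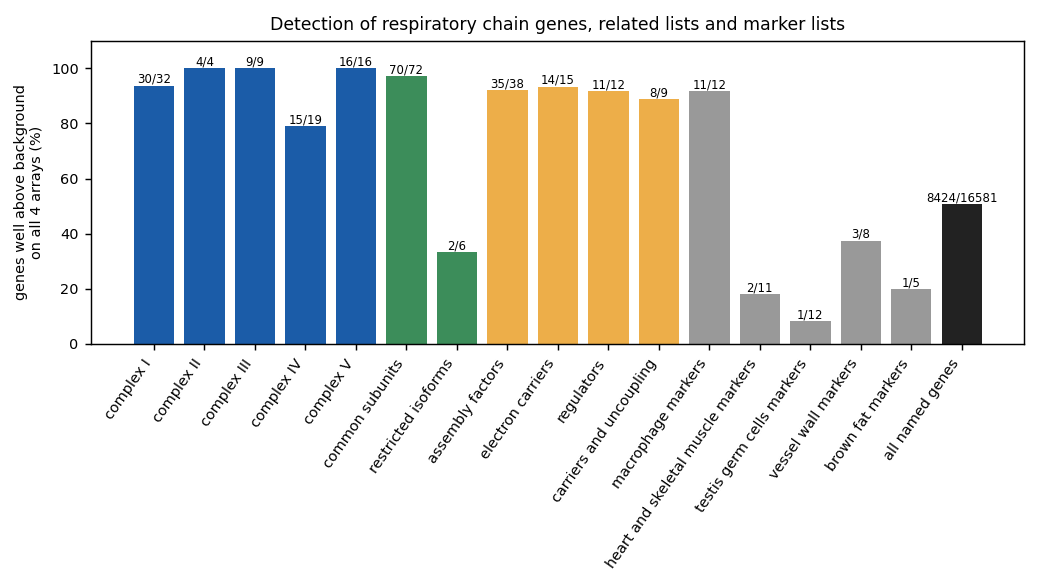
Share of genes well above background on all 4 arrays (percent, vertical axis) for each complex, for common subunits and restricted isoforms, for lists of related genes and cell type markers, and for all named genes; the fractions give detected over measured genes. Complexes II, III and V reach 100%, the restricted isoforms 33.3% and all named genes 50.8%. Cox6b2 counts as not detected here because its spot on replicate 4 was flagged and left out.

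A gene counts as detected when any of its probes does, and 6 members fell short on some array. Ndufs4, an accessory subunit next to the NADH-oxidising part of complex I, and the complex IV isoforms Cox8c and Ndufa4l2 had no probe well above background on even 1 array. Cox8b was well above it on replicate 4 only. Ndufb6, an accessory complex I subunit, and Cox6b2 were detected on 3 of 3 arrays that measured them, because their only spot on replicate 4 was flagged as non-uniform and left out. Those left-out spots had intensities of 15300 for Ndufb6 and 37400 for Cox6b2. On replicates 1 to 3 the intensities were 8030, 5170 and 7690 for Ndufb6 and 1770, 3500 and 2330 for Cox6b2. As flagged spots, the left-out values do not show detection on replicate 4. Both genes count as undetected by the rule although every array that measured them detected them.

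Promoter sequences were set beside this split of common and restricted genes. Nuclear genes of the respiratory chain are known targets of NRF1, of the ETS factor GABPA and of YY1. The RefSeq annotation of the GRCr8 assembly gave a window from 250 bases before to 50 bases after the start for 69 of the 80 genes, and both strands were searched for 4 motifs. The core letters of the NRF1 motif, GCATGCG, occurred in 11 of the 69 windows (15.9%), against 6.61% of windows of all genes detected on the 4 arrays and 3.54% of all 27457 windows in the table. The letters CCGGAAG of the ETS motif occurred in 21 (30.4%), against 20.4% of those of detected genes and 9.22% of all. The letters AAGATGG of the YY1 motif occurred in 17 (24.6%), against 9.03% and 7.3%. At least 1 of these 3 motifs was present in 36 windows (52.2%), against 31.7% of those of detected genes and 18.2% of all. The TATA box, TATAAA, was present in 6 windows (8.7%), against 7.37% and 14.3%. A match of these letters is a description and does not show a working site.

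By class, at least 1 of the NRF1, ETS and YY1 motifs was present in 2 of 5 windows of restricted isoforms (40.0%), Cox8c with NRF1 and Ndufa4l2 with YY1, and in 34 of 64 of common subunits (53.1%).

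The windows of 3 common and 2 restricted genes, picked after the matches were known, are printed to show what such matches look like, 5′ to 3′ on the gene's strand, with every match in capitals. In the window of Atp5pf, which encodes coupling factor 6 of the ATP synthase stalk (chr11:37375052-37375351, minus strand), NRF1 matches on both strands overlap in a single palindrome, followed by a YY1 and an ETS match. The window of Sdhb, the iron-sulphur subunit of complex II (chr5:158547684-158547983, plus strand), holds an NRF1 and an ETS match, and that of Cox8a, the common form of complex IV subunit VIII (chr1:213833574-213833873, minus strand), holds ETS matches at 2 places and a YY1 match at the start, all on the opposite strand. Of the restricted genes, Cox8b (chr1:205408224-205408523, minus strand) has a TATA box and none of the other 3 motifs, and Cox6a2 (chr1:192219667-192219966, minus strand) has none of the 4.
Atp5pf: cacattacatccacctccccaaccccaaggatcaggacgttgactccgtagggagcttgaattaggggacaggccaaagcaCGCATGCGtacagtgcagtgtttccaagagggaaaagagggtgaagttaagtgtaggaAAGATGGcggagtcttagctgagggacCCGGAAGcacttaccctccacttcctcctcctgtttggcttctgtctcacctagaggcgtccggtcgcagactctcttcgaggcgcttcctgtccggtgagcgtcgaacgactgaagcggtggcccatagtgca
Sdhb: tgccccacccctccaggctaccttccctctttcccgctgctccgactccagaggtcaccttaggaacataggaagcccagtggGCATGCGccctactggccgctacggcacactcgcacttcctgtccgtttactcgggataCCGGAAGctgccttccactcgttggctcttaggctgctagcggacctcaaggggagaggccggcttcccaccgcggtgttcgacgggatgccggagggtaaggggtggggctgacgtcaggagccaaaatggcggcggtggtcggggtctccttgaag
Cox8a: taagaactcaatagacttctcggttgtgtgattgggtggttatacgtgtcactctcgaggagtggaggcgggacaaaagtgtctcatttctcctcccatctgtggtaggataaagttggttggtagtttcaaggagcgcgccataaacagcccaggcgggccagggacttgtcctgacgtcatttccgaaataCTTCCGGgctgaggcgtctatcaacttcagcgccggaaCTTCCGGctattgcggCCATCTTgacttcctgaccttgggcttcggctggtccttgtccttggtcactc
Cox8b: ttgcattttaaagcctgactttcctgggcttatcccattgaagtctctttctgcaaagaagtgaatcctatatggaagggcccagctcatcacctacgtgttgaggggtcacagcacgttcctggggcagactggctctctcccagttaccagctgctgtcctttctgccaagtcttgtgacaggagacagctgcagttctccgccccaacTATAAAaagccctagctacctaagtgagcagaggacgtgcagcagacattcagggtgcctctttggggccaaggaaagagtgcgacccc
Cox6a2: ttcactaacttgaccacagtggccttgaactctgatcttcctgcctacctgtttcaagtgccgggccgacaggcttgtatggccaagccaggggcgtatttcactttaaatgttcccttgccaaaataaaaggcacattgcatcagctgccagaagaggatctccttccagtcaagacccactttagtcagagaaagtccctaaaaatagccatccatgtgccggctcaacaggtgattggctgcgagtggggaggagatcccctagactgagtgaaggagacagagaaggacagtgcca

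The restricted isoforms of complex IV differed from each other in whether they had a signal. Levels are log2 intensities relative to the array's 75th percentile, so that 0 lies at that percentile, and they are given for replicates 1 to 4 in that order, then as mean ± SD (n = 4). Since each gene has probes of its own, levels are not compared from gene to gene. Cox4i2, the lung and oxygen-responsive form of subunit IV, had levels of 3.03, 3.28, 3.01 and 3.31 (3.16 ± 0.16). Its common counterpart Cox4i1 had 8.75, 8.74, 8.86 and 8.93 (8.82 ± 0.09). Both genes were detected on every array, and the 4 values of each were close together, with an SD of 0.16 for Cox4i2 and 0.09 for Cox4i1.

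Cox6a2, the form of subunit VIa known from heart and skeletal muscle, was also detected on all 4 arrays, at 0.20, -0.05, -0.08 and -0.13 (-0.02 ± 0.15). On replicates 1 to 3 its second probe gave 0.43, 0.30 and 0.02, and the flagged spot on replicate 4 was not used. Both probes thus lay near the 75th percentile of the array. The common Cox6a1 had 9.45, 9.32, 9.65 and 9.27 (9.42 ± 0.17). The spot behind the Cox6a2 level lies in a block marked as bright on replicate 4, where its level was the lowest, and without such blocks no complete measurement of Cox6a2 remained.

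Cox6b2, the testis form of subunit VIb, had 4.16, 5.39 and 4.53 on replicates 1 to 3 (4.69 ± 0.63, n = 3), with replicate 2 the highest. Its common counterpart Cox6b1 had 0.99, 1.89, 1.03 and 1.09 (1.25 ± 0.43) and was highest on replicate 2 as well. The Cox6b1 spot lay in a block marked as bright on replicate 2, and the part of that block in the high value was not tested. Both genes were well above background wherever they were measured.

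The remaining restricted forms were at or near background. Cox8b, the muscle form of subunit VIII, which is also known from brown fat, had -3.38, -3.86, -2.82 and -2.75 (-3.20 ± 0.52), and its highest values were those of replicates 3 and 4. Cox8c, the testis form, had -4.96, -4.85, -4.89 and -5.44 (-5.04 ± 0.27). Cox8a, the common form, had 7.79, 7.39, 8.09 and 7.52 (7.70 ± 0.31), with replicate 3 high and replicate 2 low. Ndufa4l2, an oxygen-responsive relative of Ndufa4, had -5.39, -5.27, -5.26 and -4.89 (-5.20 ± 0.22) and was not well above background with either of its 2 probes. Ndufa4, long counted with complex I and now placed in complex IV, had 7.19, 6.96, 7.09 and 7.05 (7.07 ± 0.10), with little spread between arrays.

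**Figure D2:**
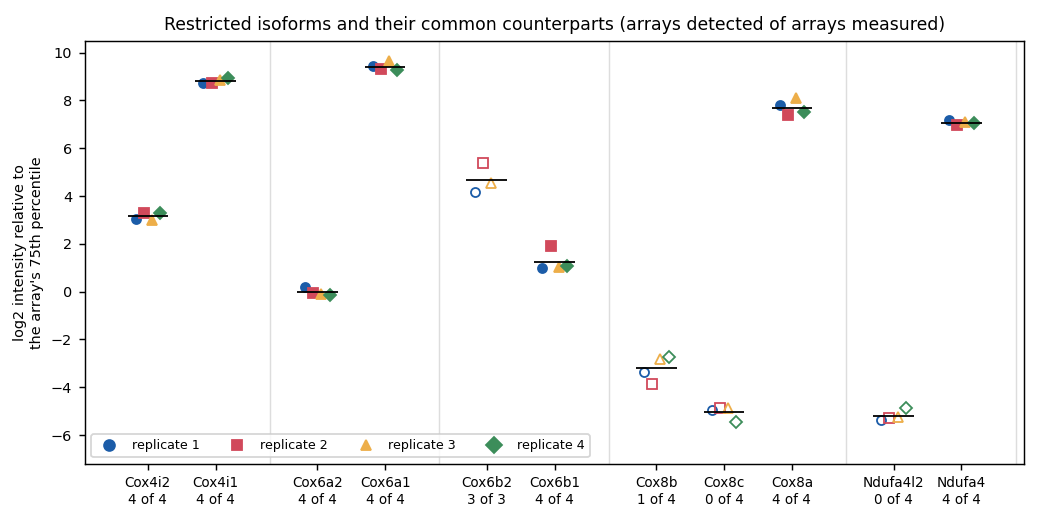
Level on each array (log2 intensity relative to the array's 75th percentile, vertical axis) of the restricted isoforms of complex IV, each group followed by its common counterpart; bars mark the mean, open symbols genes not detected on all 4 arrays, and the fractions under the names give arrays detected of arrays measured. Cox4i2 and Cox6a2 were detected on all 4 arrays, with means of 3.16 and -0.02, while Cox8c and Ndufa4l2 were detected on none.

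Markers of the cells in which these isoforms are known were measured on the same arrays. Of all 16581 named genes, 50.8% were detected on all arrays and 6116 on none. Of 11 heart and skeletal muscle markers, Tnnt2 and Mb were detected on all arrays and 8, among them the myosin heavy chains Myh6, Myh7 and Myh4, on none. Their intensities relative to the 75th percentile summed to between 3.49 and 4.02 per array. Of 12 testis germ cell markers, Prm1 was detected on all arrays and 9 on none, with sums of 0.861 to 1.66. Of 8 markers of lung vascular smooth muscle and pericytes, in which Cox4i2 and Ndufa4l2 are known, Notch3, Acta2 and Cspg4 were detected on all arrays and Pdgfrb, Kcnj8 and Higd1b on none, with sums of 1.87 to 2.53. Of 5 brown fat markers, Cidea was detected on all arrays and Ucp1, Dio2 and Ppargc1a on none, with sums of 4.42 to 5.4. Tnnt2 and Mb had mean levels of 0.90 and 0.39, Prm1 -0.77 and Cidea 2.24, so each of these lists held members with a signal beside others without one. The RNA came from a macrophage line and not from a tissue, so these lists describe which such genes had a signal in that line. What lies behind the signals of Cox4i2, Cox6a2 and Cox6b2 was not tested. In bulk RNA, a signal from few cells of the line and a low level in all of them cannot be told apart.

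Among the other complex IV subunits, which are small nuclear-encoded proteins around the catalytic core, Cox5a (7.91 ± 0.19), Cox5b (7.83 ± 0.13), Cox6c (7.13 ± 0.07) and Cox7c (2.05 ± 0.19) were all detected on 4 arrays. Cox7a2, the liver-type form of subunit VIIa, had 7.29, 7.08, 7.20 and 7.01, and Cox7a2l, a related protein that joins complexes III and IV in supercomplexes, had 6.07, 6.49, 6.37 and 6.13. Cox7a2 was lowest on replicate 4, whereas Cox7a2l was lowest on replicate 1 and highest on replicate 2. Cox7b, a further small subunit, had 5.56, 5.23, 6.13 and 5.30 (5.56 ± 0.41). Its value on replicate 3 stood above the others, and its spot lay in a block marked as bright on that array. The pseudogene Cox6c-ps1 had 1.45, 1.36, 1.33 and 1.02 (1.29 ± 0.19) on its brighter probe, while its other probe was well above background on 1 array only. Whether its signal comes from Cox6c transcripts was not tested.

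In complex I, the catalytic core genes given here, all encoded in the nucleus, were detected on every array. In the part that oxidises NADH, Ndufv1, which binds NADH and flavin, had levels of 6.36, 6.21, 6.36 and 6.26, and the iron-sulphur subunits Ndufv2 and Ndufs1 had 5.79, 5.56, 5.67 and 5.78, and 3.97, 3.84, 3.78 and 3.79. In the part that reduces ubiquinone, Ndufs3 had 4.65, 4.46, 4.61 and 4.48. The iron-sulphur subunits Ndufs7 and Ndufs8 had 4.38, 4.23, 4.55 and 4.09, and 3.86, 3.65, 3.69 and 3.58. Replicate 1 was the highest array for Ndufs1, Ndufs3, Ndufs8 and Ndufv2, and replicate 3 for Ndufs7. The SDs of these genes ranged from 0.07 for Ndufv1 to 0.20 for Ndufs7.

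Ndufs4 had -5.00, -4.84, -4.28 and -4.91 on its single probe, which was not well above background on any array. This gives an upper bound only if the probe binds its transcript, which was not tested. A low level and a failing probe cannot be told apart here. Ndufa10, an accessory subunit, was detected on all arrays at -1.96, -2.16, -2.31 and -2.20. Its copy Ndufa10l1 had 5.67, 5.71, 6.05 and 5.78, and its 2 probes differed, with means of 5.80 and 4.27. Whether transcripts of either gene bind the probes of the other was not tested. Ndufb6 had 6.34, 5.95 and 6.25 on replicates 1 to 3. The other accessory subunits (Ndufa1, Ndufa2, Ndufa5, Ndufa6, Ndufa7, Ndufa9, Ndufa11, Ndufa12, Ndufa13, Ndufb2, Ndufb3, Ndufb4, Ndufb5, Ndufb7, Ndufb8, Ndufb9, Ndufb10, Ndufb11, Ndufc2, Ndufs5 and Ndufv3) were all detected on 4 arrays, with mean levels between 3.55 for Ndufa2 and 8.23 for Ndufb8.

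The 4 genes of complex II, which is also the succinate dehydrogenase of the citric acid cycle, were detected on every array. The flavin-binding Sdha had 4.60, 4.69, 4.75 and 4.81 and the iron-sulphur subunit Sdhb 5.45, 5.33, 5.05 and 5.09. The membrane anchors Sdhc and Sdhd had 4.49, 4.31, 4.55 and 4.21, and 5.18, 5.10, 4.82 and 4.99. Sdha was lowest on replicate 1 and highest on replicate 4, whereas Sdhb and Sdhd were highest on replicate 1 and lowest on replicate 3.

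In complex III, Cyc1, the cytochrome c1 that hands electrons to cytochrome c, had 6.72, 7.06, 7.17 and 7.03. Uqcrfs1, the Rieske iron-sulphur protein, had 6.00, 6.00, 6.29 and 6.05. The core proteins Uqcrc1 and Uqcrc2 had 5.15, 5.00, 5.05 and 5.13, and 3.71, 3.86, 4.05 and 3.48. Uqcrc1 varied little, while Uqcrc2 was high on replicate 3, where its spot lay in a block marked as bright, and low on replicate 4. Among the small subunits, Uqcrh, the hinge protein, had 5.88, 5.86, 5.96 and 5.91, and Uqcr10, Uqcr11, Uqcrb and Uqcrq had means of 8.26, 6.54, 5.63 and 7.72.

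In complex V, the catalytic F1 head consists of alpha and beta subunits, encoded by Atp5f1a and Atp5f1b, around the rotating gamma subunit of Atp5f1c. Atp5f1a had 9.38, 9.54, 9.32 and 9.47, Atp5f1b 5.43, 5.49, 5.60 and 5.35 and Atp5f1c 4.72, 4.51, 4.74 and 4.74. Replicate 2 was the highest for Atp5f1a and the lowest for Atp5f1c, so the 3 genes did not follow one order over the arrays. The membrane ring is built from subunit c, which several genes encode as the same mature protein. Of these, Atp5mc1 had 8.97, 8.81, 8.60 and 8.65 and Atp5mc2 8.45, 8.36, 8.42 and 8.14, and Atp5mc3 was not analysed here because no named probe matched it. The F1 subunits Atp5f1d and Atp5f1e, the stalk subunits Atp5pb, Atp5pd, Atp5pf and Atp5po, and the small membrane subunits Atp5me, Atp5mf, Atp5mg and Atp5mk had mean levels between 5.45 for Atp5mf and 8.08 for Atp5f1e.

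Atp5if1, the inhibitor that stops ATP synthase from running backwards when the proton gradient fails, varied most of the detected members. It had 7.07, 7.65, 7.12 and 6.52 (7.09 ± 0.46), with replicate 2 high, replicate 4 low and replicates 1 and 3 between them. No spot behind this value lay in a block marked as bright.

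**Figure D3:**
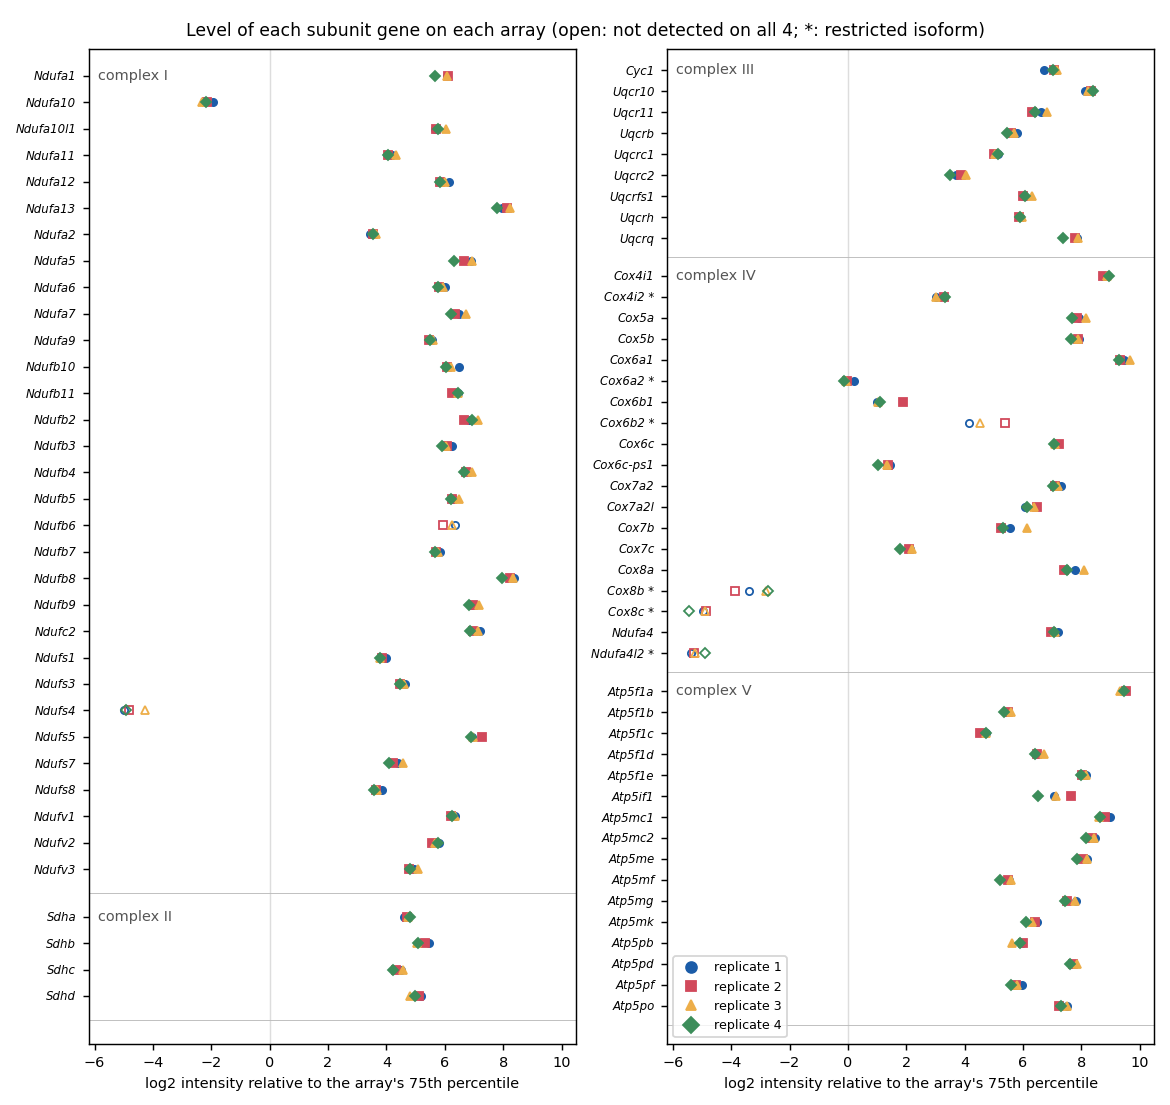
Level of the subunit genes on each array (log2 intensity relative to the array's 75th percentile, horizontal axis), grouped by complex; open symbols mark genes not detected on all 4 arrays and asterisks the restricted isoforms. The symbols of most genes overlap across the 4 arrays, Ndufs4, Cox8c and Ndufa4l2 lie near -5, and Atp5if1 spreads over 6.52 to 7.65.

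The replicates were close for most subunit genes. The median SD of the 74 detected members was 0.15 log2 units, or 1.11-fold, and that of all 8424 detected genes was 0.165, or 1.12-fold. The order depends on the setting, since scaling on the array median gave 0.427 for members and 0.39 for all detected genes, keeping flagged spots 0.18 and 0.178, and leaving out replicate 2 0.17 and 0.162. An SD over 0.25 was found for 5 members (6.76%), against 22.6% of all detected genes. These 5 were Atp5if1 (0.463), Cox6b1 (0.429), Cox7b (0.406), Cox8a (0.309) and Ndufa5 (0.29). Without the detection filter the median SD was 0.152 for members and 0.251 for all named genes measured. SDs were not compared among genes of like level, so the part of level in these differences was not tested. Ndufa5, an accessory complex I subunit, had 6.88, 6.65, 6.94 and 6.30, with replicate 4 the lowest. The smallest SDs included those of Uqcrh (0.0433), Ndufa9 (0.0625), Cox6c (0.0679) and Uqcrc1 (0.0727). Ndufa9, an accessory subunit near the site of ubiquinone reduction, had 5.56, 5.45, 5.58 and 5.49, and Cox6c had 7.14, 7.22, 7.11 and 7.06. By complex the median SD was 0.14 for complex I, 0.158 for complex II, 0.145 for complex III, 0.17 for complex IV and 0.15 for complex V. With 4 members in complex II and 9 in complex III, these medians rest on few genes. By Dixon's test, 1 array stood apart from the other 3 in 7 of the 78 members measured on all arrays (8.97%), against 9.71% of all named genes so measured. For genes detected on all arrays, the shares were 9.46% of the 74 members and 5.35% of all 8424.

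The subunit genes lay lower on replicate 4 than on the other arrays, except with normexp background correction, where the direction turned. Each gene's level was set against its own mean over the 4 arrays, and the median of this deviation over the 74 detected members was 0.07, -0.04, 0.07 and -0.12 log2 units on replicates 1 to 4. Over all detected genes it was 0.03, -0.02, 0.03 and -0.03. Replicate 4 held the lowest value of 39 members (52.7%), against 29.8% of all detected genes. On that array 61 members (82.4%) lay below their own mean, against 57.1% of all detected genes. Replicate 4 held the highest value of 4 members (5.41%), against 20.0% of all detected genes, and replicate 3 that of 35 members (47.3%), against 31.5%.

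The direction on replicate 4 was not the same after normexp correction of the median spot signals. There the median deviation of the members was 0.04, and that of all detected genes 0.05. That alternative changed the spot signal, the background correction and the offset together, and the part of each was not tested. With the processed signals the size depends on the scaling. It was -0.04 for the members and 0.02 for all detected genes after quantile normalization, and -0.07 and 0.03 when the arrays were scaled on detected probes. It was larger on the array median, with -0.38 for the members and -0.28 for all detected genes, and with flagged spots kept, with -0.19 and -0.09, where 54 of 76 members and 45.2% of all detected genes were lowest on replicate 4. Detected genes of like level also lay low on that array. The 36 members with mean levels between 5.10 and 7.12, the middle range of the members, had a median deviation of -0.12 on replicate 4, and 19 of them were lowest there. The 733 detected genes in this range, members included, had -0.08, and 46.2% of them were lowest there. Replicate 4 also had the highest 75th percentile and the most flagged spots, and their part in the deviation was not tested. A difference between cultures and a difference between hybridisations cannot be told apart here, since each culture was on 1 array.

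By complex, the lowest value fell on replicate 4 for 16 of 30 detected genes of complex I, 1 of 4 of complex II, 3 of 9 of complex III, 8 of 15 of complex IV and 11 of 16 of complex V. The share was 29.8% of all detected genes and 46.2% of the 733 with mean levels between 5.10 and 7.12. In complex I, 27 of the 30 genes lay below their own mean on replicate 4 and none was highest there, against 57.1% and 20.0% of all detected genes. The median deviations on replicate 4 were -0.11 for complex I, -0.09 for complex II, -0.03 for complex III, -0.15 for complex IV and -0.12 for complex V. The 4 members that were highest on replicate 4 were both forms of subunit IV, Cox4i1 and Cox4i2, with Sdha and Uqcr10. All of these values are from the processed signals. With normexp, 15 of the 74 members were lowest on replicate 4, against 22.6% of all detected genes. Differences between the complexes were not tested, because genes on the same arrays are not replicates.

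**Figure D4:**
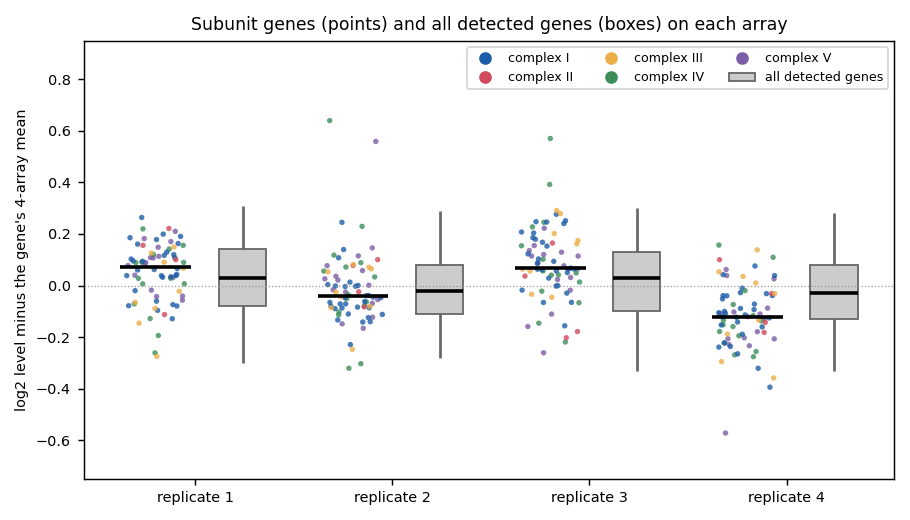
Deviation of each detected subunit gene from its own mean over the 4 arrays (log2 units, vertical axis) as points coloured by complex with their median as a bar, beside boxes for all detected genes that give the quartiles and median, with whiskers at the 5th and 95th percentiles. On replicate 4 the median is -0.12 for the subunit genes and -0.03 for all detected genes on the processed signals shown, against 0.04 and 0.05 with normexp correction.

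A single member probe, of Atp5mc2, was printed many times on each array, so that arrays could be set against the spread between spots, which is technical only. It had mean levels of 6.35 ± 0.11, 6.29 ± 0.03, 6.42 ± 0.04 and 6.21 ± 0.12 on replicates 1 to 4 (SD over 9, 8, 9 and 9 spots). Replicate 3 was the highest and replicate 4 the lowest. The arrays differed for this probe by more than the spread between its spots (moderated F test with limma, F = 8.67, Benjamini-Hochberg adjusted p = 4e-04). The same held for 82.1% of the 1350 replicated probes tested, so such a call is the usual case on these arrays and says nothing particular about Atp5mc2. After quantile normalization the adjusted p of the Atp5mc2 probe from the same limma test was 0.55, and over all alternatives it ranged from 3.2e-20 to 0.55. The test compares 4 cultures with their hybridisations and no conditions.

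Where a gene had several probes, their levels often disagreed, although nearly all of them detected the gene. This concerned 22 members, and in 19 of them every probe was well above background on all arrays, the exceptions being Cox6a2, Cox6c-ps1 and Ndufa4l2. The highest and lowest probe means lay within 1 log2 unit in 10 members and further apart in 12, with a median gap of 1.16. These counts were not made over all named genes with several probes, so they show nothing particular to the members. When every probe of a gene had to be detected on all arrays, 72 members and 45.0% of all named genes were detected. The gap exceeded 3 log2 units in Cox6c-ps1, Uqcr11, Uqcrb and Uqcrq. Uqcrq, a ubiquinone-binding subunit of complex III, had the widest, 9.07, with 7.84, 7.79, 7.88 and 7.36 on its brighter probe and -1.33, -1.17, -1.45 and -1.46 on the dimmer. Uqcrb, another small complex III subunit, had 5.78, 5.60, 5.69 and 5.44 against -0.41, -1.03, -1.06 and -1.78. On both probes of Uqcrb replicate 4 was the lowest array. The 4 probes of Atp5mc2 had means of 8.34, 8.31, 7.16 and 6.32.

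**Figure D5:**
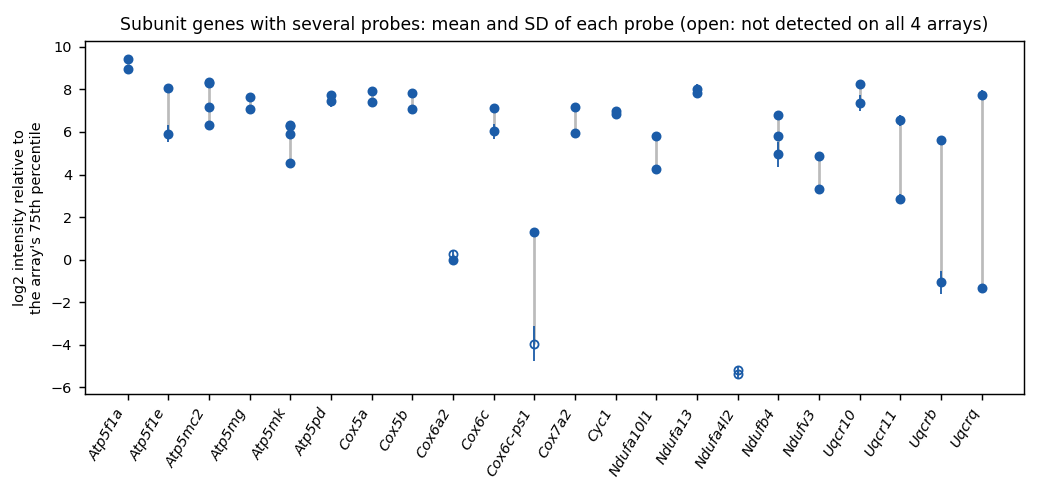
Mean level (log2 intensity relative to the array's 75th percentile, vertical axis) of each probe of the 22 genes with several probes, with the SD over arrays as bars and open symbols for probes not detected on all 4 arrays. The probes of Uqcrq lie 9.07 log2 units apart, and those of 10 genes lie within 1.

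Genes that build, feed or control the chain were mostly detected as well. Of the assembly factors measured, 35 of 38 (92.1%) were detected on all arrays, against 50.8% of all named genes. Cox11 and Cox19, which act in copper delivery to complex IV, were detected on 2 arrays, and Cox20, a chaperone of one of its catalytic subunits, on none. Among electron carriers and ubiquinone synthesis genes, 14 of 15 were detected. Cycs, the common cytochrome c, had levels of 6.12, 5.90, 5.41 and 5.54, with replicates 1 and 2 above replicates 3 and 4, while the testis form Cyct was detected on 1 array.

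Of 12 regulators of mitochondrial genes, 11 were detected on all arrays. The coactivator Ppargc1a was detected on none, with -4.85, -5.42, -5.08 and -5.52, whereas its relative Ppargc1b was detected on all, with -1.57, -1.31, -1.67 and -1.38. The factors whose motifs were searched above had a signal too, with 0.16, -0.16, -0.08 and 0.03 for Nrf1 and 0.41, 0.36, 0.08 and 0.40 for Gabpa. Of the 2 probes of Nrf1, only 1 was well above background on all arrays. Tfam, which packages mitochondrial DNA and takes part in its transcription, had 2.89, 2.61, 2.77 and 2.57. Yy1 had -0.74, -0.60, -0.63 and -1.05. Replicate 4 was the lowest for Yy1 and Tfam and not for Nrf1 or Gabpa.

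Of 9 carriers and uncoupling proteins, 8 were detected on all arrays (88.9%), against 50.8% of all named genes. Ucp1, the uncoupling protein of brown fat, was detected on none. The ADP/ATP carriers Slc25a4 and Slc25a5 had 5.01, 4.67, 4.62 and 4.67, and 6.39, 6.52, 6.60 and 6.41. Ucp2, the uncoupling protein relative known from macrophages, had 2.96, 3.12, 3.05 and 2.81, with replicate 4 the lowest.

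The reference table holds 110 protein-coding genes whose symbols meet the rule, and 79 of them had a named probe. The 31 others were not analysed here. They include the muscle form Cox7a1, the testis form Cox7b2 and the complex I genes Ndufa3, Ndufa8, Ndufb1, Ndufc1 and Ndufs6, so the counts by complex cover the genes with a named probe and not every subunit.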

How the data were processed

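Total RNA of 4 cultures was labelled and hybridised to 1-colour Agilent arrays. The submitters' processing notes name Agilent Feature Extraction 11.0.1.1 as the software that read the scans. Its deposited output holds linear intensities, one per spot, from which background had been taken off and which, per the file headers, were not normalized between arrays. Each array held 62976 spots, of which 58717 were not controls. Transcript accessions were matched without version to the RefSeq gene table of GRCr8, which named 21109 of 45598 probes. The array grid was built on another assembly, and coordinates are given for promoter windows only.

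Spots with a flag for non-uniformity or for a population outlier were not used, 8 of them member spots, and no member spot was saturated. A probe's level is the mean log2 processed signal of its spots minus the 75th percentile of non-control probes on that array. A gene took the probe with the highest mean among those measured on all arrays. Detection follows the scanner software's flag for signals well above background. Blocks of 16 rows and 8 columns were marked as bright where over 10% of unnamed spots stood 1 log2 unit above every other array.

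Members and lists were chosen with earlier results of these data known, so no test over a list was run. Genes given on each array were the isoforms and their counterparts, the catalytic subunits, the extremes of SD, the members not detected everywhere and fixed genes of each related list. Values of 1 member are not reported here, although counts and medians include it. Single spots of probes with at least 3 per array were fitted with limma 3.58.1 in R 4.3.3, with the array as a factor, and the script was tested on simulated data. The threshold for adjusted p-values was 0.05. Other steps used Python 3.11.15 with numpy 2.4.6, pandas 2.3.3 and matplotlib 3.10.9. The normexp alternative with an offset of 50 used median spot and background signals. Depth has no meaning for arrays, and the number of arrays limits the precision.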

Additional observations from a re-analysis of the deposited data

Results flagged for a closer look

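In 7 of the 78 subunit genes measured on all 4 arrays, a single array stood apart from the other 3 by more than Dixon's test allows at its usual 95% level, where about 1 gene in 20 would do so by chance. These are 8.97% of the members, against 9.71% of all named genes measured on all 4 arrays. Among genes detected on all arrays the shares were 9.46% of 74 members and 5.35% of all 8424. Replicate 2 stood lowest for Atp5f1c, with a level of 4.51 against 4.72 to 4.74 on the other arrays, and for Ndufb11, with 6.26 against 6.44 to 6.46. Replicate 2 stood highest for Ndufs5, with 7.26 against 6.91 to 6.95, and for Cox6b1, with 1.89 against 0.99 to 1.09. Replicate 4 stood lowest for Cox5b, with 7.64 against 7.88 to 7.92, and for Ndufa1, with 5.66 against 6.06 to 6.12. Replicate 3 stood highest for Atp5f1d, with 6.73 against 6.40 to 6.46. The spot of Cox6b1 lay in a block marked as bright on replicate 2, and its part in the value was not tested.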

How the results depend on the processing

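The count of detected members stayed within 67 to 76 of 80 under all alternatives. The tissue-restricted isoforms detected fell to 1 when every probe of a gene had to be detected and to 1 when bright blocks were removed, in both cases by the loss of Cox6a2. Without bright blocks Atp5mc1, Cox6b1, Cox7b, Ndufa11, Ndufb10 and Uqcrc2 had no full measurement either, by the construction of that alternative. Cox6b2 and Ndufb6 counted as detected with 3 of 4 arrays required, with flagged spots kept or without replicate 4, and Cox8b with the less strict flag. Each of these settings gave 3 detected restricted isoforms. Scaled on the array median, the median SD of the members was 0.427 and their deviations on replicates 2 to 4 were -0.30, 0.50 and -0.38, beside -0.28, 0.46 and -0.28 for all detected genes. With normexp the deviation on replicate 4 turned to 0.04, and the cause was not tested. The quantile-normalized spot test called 0 replicated member probes with limma (Atp5mc2, adjusted p = 0.55). Mean levels of all 78 members measured on all arrays moved by less than their SD with quantile normalization, while 18 moved by more with the mean of all probes, 76 with normexp, and all 78 on the array median or the percentile of detected probes, which shift the zero of the scale. With normexp the level of Cox8b was -1.07, the level of Ndufa10 -0.89, the level of Ndufs4 -1.23 and the level of Cox6c 6.16. The level of Cox6a2 was 0.77 with flagged spots kept and 0.25 without replicate 4. In both settings it came from the second probe, which was then measured on all arrays used. With flagged spots kept, it included the flagged spot on replicate 4. Genes of like level were compared on the arrays only after the data had been seen. No paired analysis was possible because there was only 1 group. Signals not above background give upper bounds at most, and only where the probe binds its transcript.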
